A study of Mus musculus with 12 samples.

Results

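Gene expression at Stage2 of reprogramming was compared with that of mouse embryonic fibroblasts (MEF), using 6 of the 12 RNA-seq libraries of the series. The members were the 3 libraries titled Stage2 and the 3 titled MEF, all of mouse cells of a mixed C57BL/6 x 129 strain background. The series follows fibroblasts that are reprogrammed to induced pluripotent stem cells (iPSC), with 3 libraries each of MEF, Stage1 (day 6), Stage2 (4 days after day 6) and established iPSC. Per the series text, Stage2 cells had been sorted for Oct4-GFP, in which the fluorescent protein GFP reports activity of Oct4 (gene symbol Pou5f1), and MEF had not. Sorting and cell state therefore cannot be told apart in this comparison. The sources used here do not give the reprogramming factors, their delivery, the culture media or the age and number of the embryos. The stage among the sample characteristics names another group than the title in each of the 12 libraries, and groups were taken from the titles. All 15 fibroblast markers checked were higher in the libraries titled MEF, and all 10 pluripotency markers were higher in those titled Stage2. These markers separate MEF from Stage2 and do not tell Stage2 from Stage1 or iPSC.

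Fibroblasts are mesenchymal cells. They secrete a collagen matrix, pull on it through actin stress fibres and integrins, and sense that pull through the transcription factor Srf and the co-activator Yap, which acts through Tead factors. Pluripotent cells grow as tight epithelial colonies held together by E-cadherin. Their identity rests on a network of transcription factors around Pou5f1, Sox2 and Nanog, they divide fast with a short G1 phase, and they express DNA methyltransferases, Tet oxidases and a set of genes otherwise used in germ cells.

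The libraries differed in more than the genes described below. Counts on genes totalled 9257487 to 13528952 at Stage2 and 8916223 to 19011944 in MEF. Between 19317 and 20349 genes had a count at Stage2 and between 13817 and 14586 in MEF. Reads outside genes made up 47.4% to 53.4% of reads at Stage2 and 8.86% to 9.42% in MEF. Structural RNA genes, such as Rn45s, the ribosomal RNA precursor, took 0.683% to 2.02% of gene counts at Stage2 and 4.48% to 12.6% in MEF. In genes with a count, reads outside genes and structural RNA, the MEF libraries stood apart from Stage1 and iPSC too. Whether the MEF libraries were made in another way is not given, and cannot be told apart from cell state here. Xist, the RNA of X inactivation, stood at 226.8 CPM in MEF replicate 1, at 0.267 and 0 CPM in MEF replicates 2 and 3, and at 3.13 to 9.31 CPM at Stage2. Y-linked Ddx3y stood at 0.752 CPM in MEF replicate 1, at 126.8 and 127.4 CPM in the other MEF replicates and at 186.1 to 223.7 CPM at Stage2. MEF replicate 1 thus had the RNA pattern of female cells, and the other MEF and all Stage2 libraries that of male cells. The part of these differences in the results was not tested beyond the alternatives named in the closing section.

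Of 14770 genes tested, 6590 (44.6%) were higher at Stage2 and 5372 (36.4%) were lower, so that 81% of genes were called. These shares are the background for each count of list members below. The test was edgeR's quasi-likelihood test over all 12 libraries with Benjamini-Hochberg adjustment, and a gene was called at an adjusted p below 0.05. Adjusted p-values given below as edgeR adjusted p come from that test. The ± beside a log2 fold change is an approximate standard error (SE), its size divided by the square root of the test's F value. For genes with few or no counts in a group, the fold change and the SE depend on the small count added for the fitted value (the prior count). At least 2-fold differences were called for 5351 genes higher (36.2%) and 4249 lower (28.8%), and at least 16-fold differences for 1813 and 908. The libraries did not overlap for 6596 genes with Stage2 above MEF (44.7%) and for 5257 with MEF above Stage2 (35.6%). The median log2 fold change over all genes tested was 0.25. Levels are counts per 1e+06 after TMM scaling (CPM). They are not corrected for gene length and are compared between samples only. Values of single libraries are listed in the order of replicates 1, 2 and 3. Nothing in the labels says whether replicates came from separate cultures or animals. The Xist and Ddx3y levels above set MEF replicate 1 apart from MEF replicates 2 and 3, so the MEF libraries were not all repeats of 1 source. The p-values reflect only how far these libraries spread, and apart from that difference the spread may be technical.

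Some genes tested were absent from 1 of the groups. No count was present in any MEF library for 971 of the genes tested, against 8 genes without a count at Stage2. The filter used all 12 libraries, so genes without a count in MEF could pass through Stage1, Stage2 or iPSC. Such genes could not come out lower at Stage2. Stage2 libraries also had more genes with a count and more reads outside genes, as given above. The part of these differences in the uneven numbers was not tested. A fold against a group without counts is given as a lower bound, set at 3 counts over the 3 libraries of that group. In bulk RNA, fewer cells of a type and less RNA per cell cannot be told apart.

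**Figure D1:**
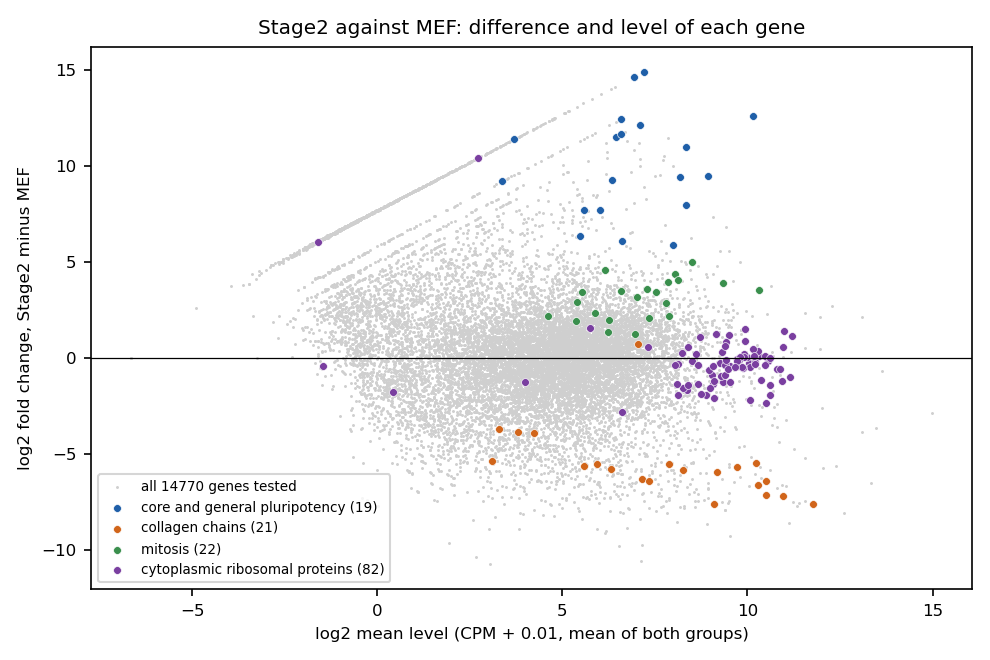
Each point is 1 of the 14770 genes tested, with its mean level over both groups on the x axis (log2 CPM) and its log2 fold change, Stage2 minus MEF, on the y axis. Core pluripotency genes (blue) lie well above 0, all but 1 of the collagen chains (orange) far below 0, mitosis genes (green) above 0, and cytoplasmic ribosomal proteins (purple) at high levels on both sides of 0.

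The factors commonly used for reprogramming did not move together. Sox2, a core pluripotency factor (chromosome 3, 34649995 to 34652461, mm10), had 945, 941 and 1034 CPM at Stage2 and 0.877, 1.54 and 1.51 CPM in MEF. This 745-fold higher level was a log2 fold change of 9.46 ± 0.22 (edgeR adjusted p = 7.45e-15). Pou5f1, the gene behind the reporter used for sorting (chromosome 17, 35506032 to 35510777, mm10), had 659, 682 and 599.6 CPM at Stage2 and 0.877, 3.94 and 2.41 CPM in MEF, a log2 fold change of 7.96 ± 0.29 (edgeR adjusted p = 1.04e-13). For both genes the lowest Stage2 library lay far above the highest MEF library. Stage2 cells had been sorted for the Pou5f1 reporter, so the separation of Pou5f1 is no separate result. Klf4 was present in MEF already, at 8.52, 16.8 and 28.5 CPM, and reached 199.8, 156 and 148 CPM at Stage2, a log2 fold change of 3.19 ± 0.29 (edgeR adjusted p = 3.76e-08). Myc went the other way. It had 45.5, 54.8 and 59.8 CPM in MEF and 5.76, 3.03 and 2.39 CPM at Stage2, a log2 fold change of -3.88 ± 0.35 (edgeR adjusted p = 1.81e-08). Its relative Mycn had 0.626, 0.802 and 0.965 CPM in MEF and 153, 127 and 122 CPM at Stage2, so that the MEF and Stage2 libraries of Myc and of Mycn stood apart in opposite directions. Counts per gene symbol cannot separate transcripts of the cells' own genes from introduced copies.

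All 19 core and general pluripotency genes tested were higher at Stage2, with a median log2 fold change of 9.46 (9.41 with the 3 genes without a count in MEF set at their bound). Nanog, which stabilises the network, had 164, 178 and 145 CPM at Stage2 and 0.752, 0.134 and 0.121 CPM in MEF, a 484-fold difference. Zfp42 (Rex1), a marker of the naive state, had 144, 349 and 327 CPM at Stage2. Replicate 1 lay below the others, and MEF held 2 counts in all, a ratio of 5690 (95% counting interval 1570 to 47000). Tdgf1, the co-receptor of Nodal, had 2722, 1930 and 2190 CPM at Stage2 and 0.626, 0.535 and 0.0603 CPM in MEF, a 5602-fold difference. The smallest difference of the list, in the cell cycle factor Mybl2, was still a log2 fold change of 5.87 ± 0.31.

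Promoters of 2 of these genes are shown because each holds the letters TTTGCAT, a part of the octamer that Pou5f1 protein is known to bind. The runs are the 200 bases before the annotated start, 5′ to 3′ on the gene's strand, from RefSeq (GRCm38.p6), with these letters in capitals. Nanog lies on the plus strand at chr6:122707289-122707488 and Zfp42 on the minus strand at chr8:43307010-43307209.
Nanog: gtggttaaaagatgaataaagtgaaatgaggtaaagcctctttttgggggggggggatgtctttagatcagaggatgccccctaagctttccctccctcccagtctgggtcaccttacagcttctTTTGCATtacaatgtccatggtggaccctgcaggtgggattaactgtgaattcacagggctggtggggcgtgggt
Zfp42: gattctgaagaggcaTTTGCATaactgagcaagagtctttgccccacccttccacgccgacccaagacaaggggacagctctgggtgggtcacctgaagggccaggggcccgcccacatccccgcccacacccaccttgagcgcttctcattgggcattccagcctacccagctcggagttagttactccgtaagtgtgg
Windows of 250 bases before to 50 after the start were searched on both strands. TTTGCAT was found in 3 of the 11 core pluripotency genes with a window (27.3%, Nanog, Sox2 and Zfp42) and in 0 of 11 naive pluripotency genes. It also stood in 3 of 26 actin and contractile genes (11.5%, Lmod1, Palld and Srf), a list lower at Stage2, and in 1416 of 27025 genes overall (5.24%). A match describes the letters and is neither a site nor a cause of the difference.

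Among 16 naive pluripotency genes, which mark the state of the early epiblast and of embryonic stem cells, 15 were higher, 0 were lower and 1 was not called, with a median log2 fold change of 7.11. Esrrb, an orphan nuclear receptor, had 443, 450.5 and 395 CPM at Stage2 and 1, 0 and 0.181 CPM in MEF. Tfcp2l1, a factor of the LIF-driven network, had 446, 477 and 455 CPM and 0.501, 0 and 0.121 CPM, a 2215-fold difference. Nr5a2 and Nr0b1, nuclear receptors that work on the Pou5f1 gene and protein, had no count in MEF. They were at least 943-fold and 868-fold higher at Stage2. Klf2, a factor shared with other tissues, differed less. It had 57.2, 45.3 and 37.7 CPM at Stage2 and 17.9, 14.9 and 19.7 CPM in MEF, a log2 fold change of 1.42 ± 0.18, without overlap of the libraries. Nacc1 was the member not called, with 161, 151 and 137 CPM at Stage2 and 86.4, 108 and 159.6 CPM in MEF, and its call turned on the setting. Nacc1 was called higher with library totals (edgeR adjusted p = 0.000862), with RLE scaling (0.0238), by DESeq2 (0.0214) and without MEF replicate 3 (0.000268).

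Genes of the formative and primed epiblast, the state that follows the naive one, were higher as well, 17 of 19 tested with a median of 4.99, and 2 were lower. With the 8 genes without a count in MEF set at their bound the median was 4.9. Otx2, which drives the exit from the naive state, had 58.5, 56 and 52.3 CPM at Stage2 and no count in MEF, at least 727-fold higher. Its Stage2 level was also above the 4.65 ± 2.74 CPM of Stage1 and the 7.92 ± 0.898 CPM of iPSC (SD, n = 3). Stage2 against iPSC gave a log2 fold change of 2.81 ± 0.33 for Otx2 (edgeR adjusted p = 0.000114). Fgf5, a ligand of the primed epiblast, had 12, 9.31 and 9.57 CPM at Stage2, 0.752, 1.2 and 0.362 CPM in MEF and a mean of 0.277 CPM in iPSC, again above both. The 2 lower members were Cdh2, the mesenchymal N-cadherin, and Sall2, a zinc-finger factor, with log2 fold changes of -4.11 ± 0.26 and -2.83 ± 0.32.

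Signals of the epiblast were mixed. Of 24 ligands, receptors and targets of LIF, BMP, Nodal and FGF, 11 were higher (45.8%), 9 were lower (37.5%) and 4 were not called. These shares were near those of all genes tested (44.6% higher and 36.4% lower). Lefty2, a secreted inhibitor of Nodal, had 136, 189.7 and 189 CPM at Stage2 and no count in MEF, at least 2310-fold higher. Nodal itself had 15.2, 13.6 and 11.4 CPM at Stage2 and no count in MEF. Fgf4, the FGF that pluripotent cells make, had 413, 389 and 470.2 CPM at Stage2 and 0.125, 0.0669 and 0.663 CPM in MEF. The BMP targets Id1, Id2 and Id3, inhibitors of differentiation factors, were lower. Id3 had 80.3, 118 and 173 CPM in MEF and 5.28, 3.6 and 4.59 CPM at Stage2, a log2 fold change of -4.80 ± 0.27. On the LIF axis, the receptor Lifr was 8.66-fold higher and the target Socs3 9.05-fold higher, while the shared receptor chain Il6st was lower, at a log2 fold change of -1.04 ± 0.13. Wnt genes were mixed against the same background, with 9 of 24 higher (37.5%), 12 lower (50%) and 3 not called (10 higher and 9 lower when scaled by library totals). Wnt5a, a mesenchymal ligand, had 184, 131 and 165 CPM in MEF and 2.74, 2.82 and 3.43 CPM at Stage2. The nuclear factor Lef1 had 3.76, 4.21 and 4.58 CPM in MEF and 79.4, 56 and 70.9 CPM at Stage2, and the feedback target Axin2 was 8.16-fold higher.

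The genes with the largest fold changes upward came from several roles. Genes were named here only where the Stage2 and MEF libraries did not overlap, so their separation is no separate result. Lin28a, the RNA-binding protein that blocks let-7 maturation (chromosome 4, 134003330 to 134019196, mm10), had 315, 290.3 and 282 CPM at Stage2 and no count in MEF, which makes it at least 3870-fold higher. Fbxo15, an F-box protein used as a marker in early reprogramming work, had 255, 251 and 227 CPM and no count in MEF, at least 3190-fold higher. The others without a count in MEF were Trap1a, an X-linked tumour antigen (at least 2110-fold), the meiotic recombination factor Hsf2bp (at least 1450-fold) and Ooep of the oocyte's subcortical complex (at least 1110-fold). St14, a membrane protease of epithelia, was at least 887-fold higher, Triml2 at least 900-fold and the zinc-finger gene Zfp600, which has near copies, at least 922-fold. Lefty2, Nr5a2, Nr0b1 and Tdgf1, described above, complete the 12.

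**Figure D2:**
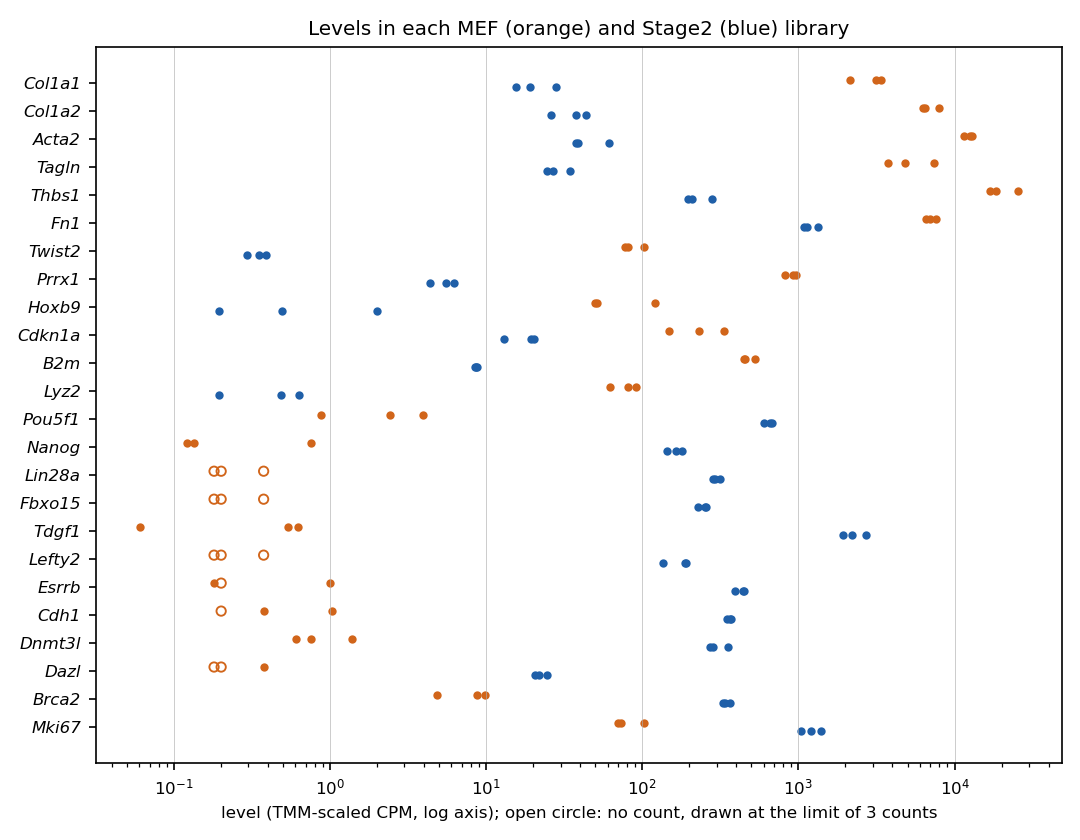
Level of 24 genes in each MEF (orange) and Stage2 (blue) library on a log axis of TMM-scaled CPM, with open circles at the limit of 3 counts for libraries without a count. The upper 12 genes have all MEF libraries to the right of all Stage2 libraries and the lower 12 have them to the left, with Fn1 showing the narrowest gap of the matrix genes drawn.

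The 12 genes with the largest fold changes downward had varied roles. C1qa, a complement subunit made by macrophages, had 16.7, 11.9 and 20.6 CPM in MEF and no count at Stage2, at least 219-fold lower. Ccl17, a chemokine, was at least 106-fold lower and Ifi27l2b, of an interferon-inducible family with near copies, at least 157-fold. S100a11, a calcium-binding protein, had 1866, 1476 and 1107 CPM in MEF and 2.54, 2.26 and 2.59 CPM at Stage2, a log2 fold change of -9.23 ± 0.23 (edgeR adjusted p = 7.45e-15). Gng11, a G protein subunit, had 402, 309 and 121 CPM in MEF and 0.195, 0 and 0.323 CPM at Stage2. Lrrc17 and Fibin, secreted proteins of mesenchyme, were 934-fold and 892-fold lower. Tnmd (tenomodulin), a marker of tendon cells, was 459-fold lower, Nov (Ccn3), a matricellular protein, 489-fold and Sprr2k, a member of a family of near copies, 565-fold. Zfp703 held 2 counts at Stage2, a ratio of 558 (95% counting interval 154 to 4610), and C1qb held 1, a ratio of 688 (95% counting interval 123 to 27200).

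Matrix genes fell almost as a whole, against a background of 36.4% of genes lower. Of 21 collagen chains, 20 were lower and 1 was higher, with a median log2 fold change of -5.78. Summed over the list, collagen chains took 23470 to 33990 CPM in MEF and 411 to 496.8 CPM at Stage2. Col1a2, a chain of type I collagen (chromosome 6, 4505618 to 4541543, mm10), had 6492, 6269 and 7931 CPM in MEF and 37.6, 26.2 and 43.7 CPM at Stage2. The difference was 192-fold, a log2 fold change of -7.59 ± 0.23 (edgeR adjusted p = 1.72e-14). Col1a1 was 139-fold and Col3a1 84-fold lower. Col18a1, a basement membrane collagen, was the chain called higher, with 175, 157 and 164 CPM at Stage2 and 52.7, 70.8 and 172 CPM in MEF. MEF replicate 3 lay inside the Stage2 range, and the call (edgeR adjusted p = 0.0391) was lost when only the 6 libraries were fitted (0.0519) and when any Stage2 library, or MEF replicate 1 or 2, was left out (0.0579 to 0.163).

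Matrix glycoproteins and proteoglycans were lower in 23 of 24 tested, with a median of -6.24. Postn (periostin) had 5513, 3301 and 4612 CPM in MEF and 10.4, 7.47 and 16.6 CPM at Stage2, 389-fold lower. Thbs1 (thrombospondin 1) had 18420, 16870 and 25520 CPM in MEF and 207, 196 and 279 CPM at Stage2. It fell by 6.48 on the log2 scale. Not all of the matrix was lost. Fn1 (fibronectin) had 6585, 7002 and 7658 CPM in MEF and still 1334, 1084 and 1137 CPM at Stage2, a log2 fold change of -2.58 ± 0.20 (edgeR adjusted p = 2.21e-09). The nidogens, which link laminin to collagen IV in basement membranes, parted. Nid1 had 1460, 1001 and 1535 CPM in MEF and 249.5, 265 and 294 CPM at Stage2. Nid2 had 22.9, 30.5 and 82.2 CPM in MEF and 348, 304 and 311 CPM at Stage2, the exception of its list. All 16 enzymes and chaperones of collagen folding and crosslinking were lower (median -5.01), among them Serpinh1, the collagen chaperone, at 56.3-fold and the crosslinking enzyme Lox at 76-fold. All 20 matrix proteases and inhibitors were lower (median -5.4), such as the membrane protease Mmp14 at 55.7-fold.

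All 29 actin and contractile genes tested were lower, with a median log2 fold change of -4.38. Acta2, a smooth muscle actin that marks contractile cells (chromosome 19, 34240336 to 34255585, mm10), had 13030, 11580 and 12580 CPM in MEF and 37.9, 38.7 and 61.5 CPM at Stage2, a log2 fold change of -8.07 ± 0.29 (edgeR adjusted p = 8.65e-14). Tagln (transgelin), an actin crosslinker, had 4784, 7407 and 3771 CPM in MEF and 26.7, 24.5 and 34.2 CPM at Stage2. The general cytoskeleton was lower too, by smaller factors. Actb (beta-actin), named for its large absolute difference, had 18320, 13490 and 17310 CPM in MEF and 1254, 1227 and 1012 CPM at Stage2, 14.1-fold lower, and Myh9, a nonmuscle myosin, was 2.96-fold lower. Tpm3, a tropomyosin, showed the smallest difference of the list, at a log2 fold change of -0.95 ± 0.14. Srf, the transcription factor that drives many of these genes, had 62.1, 72.5 and 116 CPM in MEF and 26.8, 23.9 and 27.6 CPM at Stage2, 3.21-fold lower without overlap.

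Promoters of 3 members of this list are shown because each holds a CArG box, the element that Srf protein is known to bind. A match was counted only for CC and GG with A or T alone at each place between them. They are again the 200 bases before the start, 5′ to 3′ on the gene's strand, from RefSeq (GRCm38.p6), with the CArG box in capitals. Myl9, a myosin light chain, lies on the plus strand at chr2:156775264-156775463, Cnn2, a calponin, on the plus strand at chr10:79988400-79988599, and Srf on the minus strand at chr17:46556163-46556362.
Myl9: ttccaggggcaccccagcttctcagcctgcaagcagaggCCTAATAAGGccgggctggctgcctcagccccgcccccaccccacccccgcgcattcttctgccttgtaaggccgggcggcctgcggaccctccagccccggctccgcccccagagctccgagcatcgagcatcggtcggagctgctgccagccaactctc
Cnn2: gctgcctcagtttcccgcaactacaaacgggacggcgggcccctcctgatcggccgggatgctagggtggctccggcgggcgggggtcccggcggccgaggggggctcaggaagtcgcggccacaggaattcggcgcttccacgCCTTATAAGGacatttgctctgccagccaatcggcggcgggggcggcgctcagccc
Srf: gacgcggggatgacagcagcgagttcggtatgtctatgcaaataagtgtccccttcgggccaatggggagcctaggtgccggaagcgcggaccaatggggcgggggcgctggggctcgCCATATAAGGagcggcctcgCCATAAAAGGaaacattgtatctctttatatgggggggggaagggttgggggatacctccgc
Srf holds 2 matches, and Myl9 and Cnn2 hold 1 each. In windows of 250 bases before to 50 after the start, searched on both strands, a CArG box was found in 5 of the 26 list members tested that had a window (Cnn2, Myl6, Myl9, Srf and Vcl) and in 488 of 27025 genes overall (1.81%). Myl9 had 1536, 1242 and 1502 CPM in MEF and 10.7, 8.11 and 14.6 CPM at Stage2, 128-fold lower. Cnn2 was 51.3-fold lower, Vcl, the focal adhesion protein vinculin, 12.9-fold and Myl6 8.34-fold. The members with a match thus ran from 3.21-fold to 128-fold lower. Acta2, with the largest difference of the list, had no exact match in its window. Boxes with another letter between CC and GG were not searched, so Acta2 and other members may hold such a box.

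Adhesion to the matrix was lower as well. Of 24 integrin and focal adhesion genes, 20 were lower, 2 were higher and 2 were not called (median -3.68). Cav1 (caveolin 1), the coat protein of caveolae, had 539.7, 579 and 762 CPM in MEF and 2.83, 2.89 and 2.85 CPM at Stage2, 219.5-fold lower. Itga5, the fibronectin receptor chain, was 49.8-fold lower, whereas Itga6, a laminin receptor chain, had 35.7, 24.2 and 32.9 CPM in MEF and 164, 153 and 153 CPM at Stage2, 5.07-fold higher. The other higher member, Itga3, differed by a log2 fold change of 0.63 ± 0.25 and lost its call when only the 6 libraries were fitted (edgeR adjusted p = 0.0704) and without Stage2 replicate 1 (0.113), MEF replicate 1 (0.0673) or MEF replicate 2 (0.106).

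Transcription factors of mesenchyme were lower in 26 of 29 tested, with 1 higher and 2 not called, at a median of -4.1. Twist2, a regulator of mesenchymal fate, had 81.6, 77.2 and 103 CPM in MEF and 0.293, 0.353 and 0.388 CPM at Stage2. Prrx1, a limb and connective tissue factor, had 929, 817 and 972 CPM in MEF and 4.4, 5.5 and 6.27 CPM at Stage2. The repressors of E-cadherin were lower to different degrees. Snai1 was 82.6-fold lower and Zeb1 2.71-fold. The Hox genes, which record position along the body, were lower in 25 of the 27 tested, out of 39 in the files (median -5.02). Hoxb9 had 121, 51.5 and 50.2 CPM in MEF and 0.195, 0.494 and 2 CPM at Stage2. Hoxc13 was the member called higher, from a mean of 0.589 ± 0.25 to 2.05 ± 0.551 CPM (SD, n = 3).

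Genes that respond to growth factors and tension followed. In the TGF-beta list 14 of 18 were lower, 1 was higher and 3 were not called (median -2.49). The ligand Tgfb3 had 568, 630.1 and 675 CPM in MEF and 1.86, 2.26 and 4.72 CPM at Stage2, 212-fold lower, and Tgfb1i1 (Hic-5), a focal adhesion protein induced by the pathway, was 415-fold lower. Skil (SnoN), a repressor of Smad proteins, was the higher member, with 181, 177 and 154 CPM in MEF and 371, 399.7 and 418 CPM at Stage2. Of 15 Yap and Tead genes 12 were lower, 1 was higher and 2 were not called (median -2.72). The target Ankrd1 had 598, 328 and 406 CPM in MEF and 1.66, 1.97 and 3.82 CPM at Stage2, and Ctgf and Cyr61, secreted targets, were 44.9-fold and 41.9-fold lower. Yap1 itself was 2.08-fold lower. Its partners parted, since Tead3 was lower (-4.45 ± 0.34) and Tead4 higher (3.68 ± 0.41, both log2 fold changes). The letters GGAATG, known from Tead binding, stood in the promoter windows of 9 of 11 genes of the Yap list (81.8%) and 4481 of 27025 genes overall (16.6%). They also stood in 10 of 26 actin and contractile genes (38.5%) and in 2 of 11 core and 2 of 11 naive pluripotency genes (18.2% each). The 27025 genes include genes not tested here. A match is again neither a site nor a cause of the difference. Immediate early genes were lower in 12 of 16, with a median of -2.37 and 4 not called. Fosl2 was 40.4-fold lower and Egr1 9.95-fold, while Fos had 54, 45.3 and 124 CPM in MEF and 66.3, 60.7 and 42.4 CPM at Stage2 and was not called. Receptors such as Pdgfrb (67.4-fold) and Egfr (41-fold) were lower in a list where 16 of 20 were lower and 4 were higher.

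The epithelial list showed the reverse. Of 32 genes of junctions and keratins, 29 were higher, 2 were lower and 1 was not called, against 44.6% of all genes higher. The median log2 fold change was 7.2, or 4.88 with the 12 genes without a count in MEF set at their bound. Cdh1 (E-cadherin) had 364, 369.7 and 347 CPM at Stage2 and 0.376, 0 and 1.02 CPM in MEF, a log2 fold change of 9.46 ± 0.37 (edgeR adjusted p = 3.81e-13). Epcam, an epithelial adhesion molecule, had 228, 274 and 232 CPM and 0.251, 0 and 0.181 CPM, a 1701-fold difference. Esrp1, the splicing regulator of epithelia, had 52.5, 43.9 and 42.5 CPM at Stage2 and no count in MEF. The lower members were Krt19, a keratin (23.4, 27.6 and 30.7 CPM in MEF, 3.13, 6.98 and 5.04 CPM at Stage2), and Jup (plakoglobin), 2.53-fold lower. The relative Esrp2 was not called. Mbnl1, a splicing factor of differentiated cells, had 229, 190.5 and 312 CPM in MEF and 33.7, 31.3 and 29.5 CPM at Stage2, and Rbfox2 was 2.34-fold lower, in a list of 20 splicing regulators with 6 higher, 8 lower and 6 not called (8 higher and 5 lower when scaled by library totals).

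**Figure D3:**
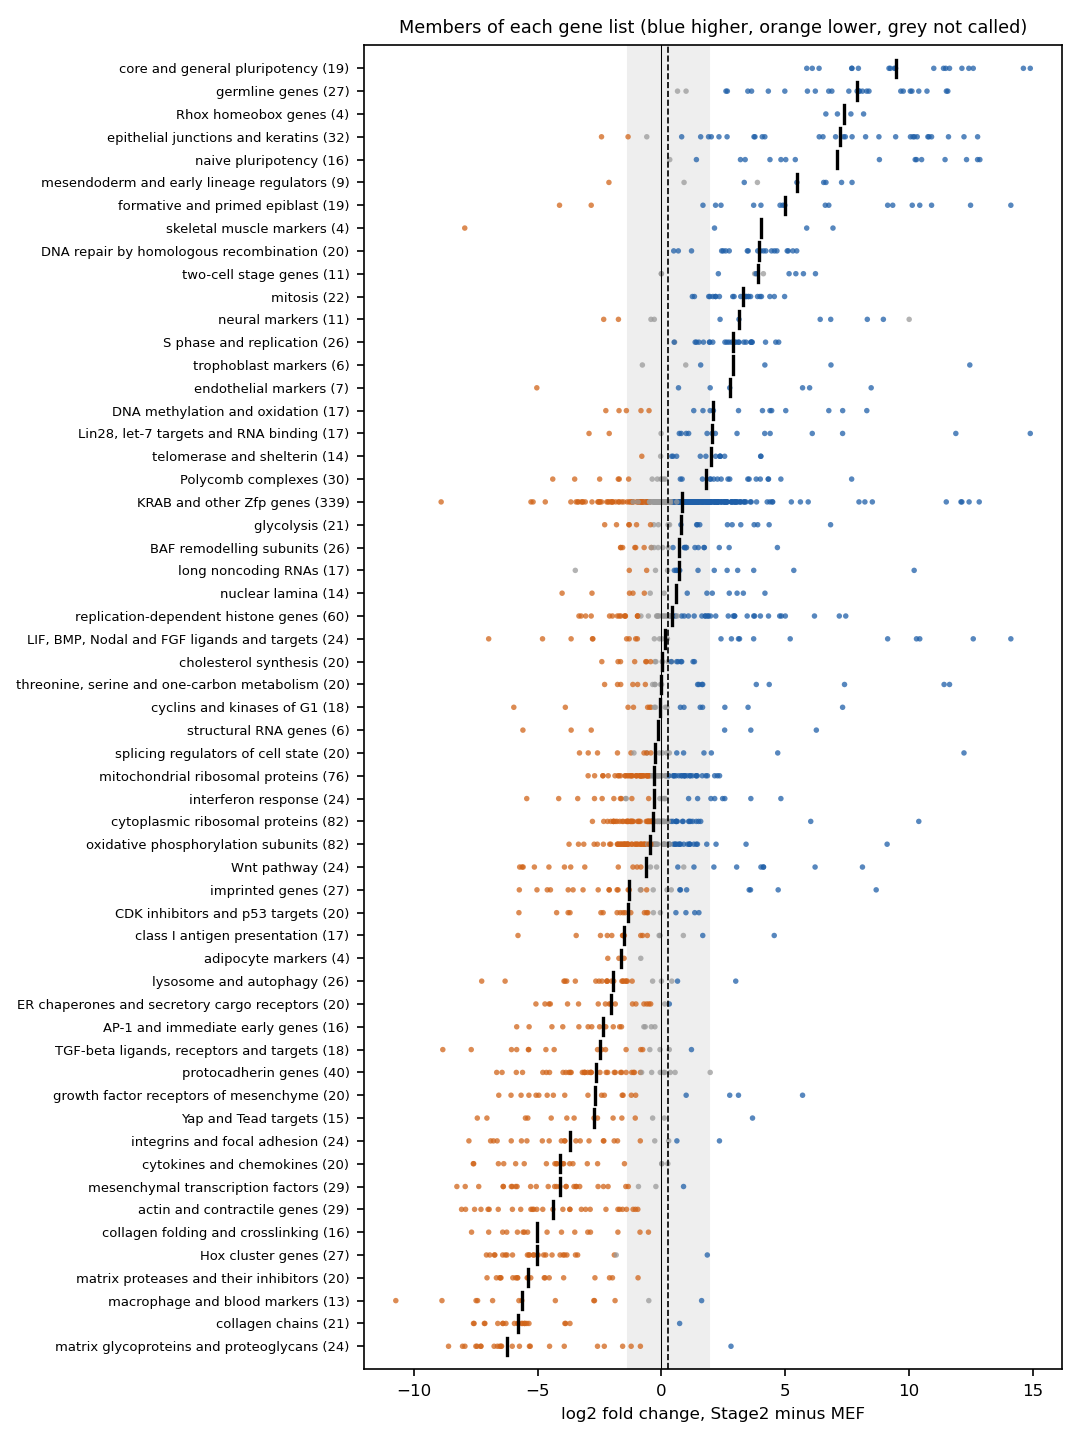
Log2 fold change, Stage2 minus MEF, of every tested member of each gene list with at least 4 members tested (blue higher, orange lower, grey not called), with the list median as a black bar. The grey band holds the middle part of all genes, from -1.33 to 1.93 (quartiles), and the dashed line their median of 0.25; lists of matrix and contractile genes lie left of the band and pluripotency, epithelial and germline lists right of it, judged by their medians and with genes without a count in MEF drawn at their fitted values.

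Of the chromatin lists, read against 44.6% of all genes higher, the DNA methylation list had 12 of 17 higher and 5 lower. Dnmt3l, the cofactor of de novo methylation, had 354, 283 and 270.3 CPM at Stage2 and 0.752, 0.602 and 1.39 CPM in MEF, a log2 fold change of 8.30 ± 0.24 (edgeR adjusted p = 1.46e-14). The oxidase Tet1 had 1146, 952 and 1125 CPM at Stage2 and 11.3, 3.88 and 5.97 CPM in MEF, and Tet2 was 32.7-fold higher. Tet3 was 3.26-fold lower, with 23.6, 22.3 and 26.9 CPM in MEF and 8.3, 7.4 and 6.6 CPM at Stage2, so the family did not move together. Polycomb genes were higher in 18 of 30, lower in 6 and not called in 6. Ezh2, the methyltransferase of complex 2, was 14.1-fold higher, Suz12 11.2-fold and the accessory protein Jarid2 28.2-fold. In complex 1, Cbx7 had 66.3, 80.9 and 79.7 CPM at Stage2 and 0.752, 0 and 0.482 CPM in MEF, whereas Cbx8 was lower, at 0.0977, 0.635 and 0.453 CPM against 2.76, 4.88 and 6.57 CPM. Phc1 was 20.3-fold higher and Phc2 20.6-fold lower. Subunits of BAF remodellers were near that background, with 13 of 26 higher, 7 lower and 6 not called. Smarcc1 was 2.82-fold higher and its relative Smarcc2 3.1-fold lower. In the lamina list of 14, 7 were higher, 5 lower and 2 not called, also near the background. Lmna (lamin A/C) had 327, 407 and 739 CPM in MEF and 27.5, 36 and 28 CPM at Stage2, and Lmnb1 (lamin B1) had 18.8, 14 and 31.8 CPM in MEF and 466, 389 and 326 CPM at Stage2.

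Proliferation genes were higher as whole lists. All 22 mitosis genes (median 3.31), 25 of 26 genes of S phase (median 2.9) and all 20 genes of homologous recombination (median 3.95) were higher. Mki67, a marker of cycling cells, had 1202, 1039 and 1395 CPM at Stage2 and 73.4, 69.9 and 102 CPM in MEF, a log2 fold change of 3.88 ± 0.18 (edgeR adjusted p = 1.56e-12). Brca2, a protein of DNA break repair, had 337, 327 and 367 CPM at Stage2 and 8.77, 4.88 and 9.77 CPM in MEF. Pola1, a subunit of DNA polymerase alpha, was 26.9-fold higher. G1 regulators were near the background of all genes. Of 18, 7 were higher (38.9%), 7 lower (38.9%) and 4 not called (9 higher and 4 lower when scaled by library totals). Ccnd2 (cyclin D2) had 793, 694 and 984 CPM in MEF and 15.9, 11.5 and 12.5 CPM at Stage2, 62-fold lower, and Ccne1 (cyclin E1) was 3.19-fold higher. Cell cycle brakes were lower in 14 of 20, with 4 higher and 2 not called (median -1.35). Cdkn1a (p21) had 232, 148 and 332 CPM in MEF and 20.2, 19.3 and 13.1 CPM at Stage2, Cdkn2b (p15) was 55.1-fold lower and Cdkn2a, which encodes p16 and p19Arf, 5.43-fold. Telomere genes were higher in 12 of 14. Terf1, a telomere-binding protein, had 101, 88.4 and 76 CPM at Stage2 and 3.38, 7.02 and 5.43 CPM in MEF, and Tert, the catalytic subunit of telomerase, was 5.31-fold higher.

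Metabolic lists were mixed. They are read against 44.6% of all genes higher and 36.4% lower, and several were not far from it. Of 21 glycolysis genes 11 were higher (52.4%), 6 were lower (28.6%) and 4 were not called. Slc2a3, a high-affinity glucose transporter, had 1221, 1466 and 1364 CPM at Stage2 and 11.9, 14 and 9.65 CPM in MEF. Pfkp, a phosphofructokinase, was 20.5-fold higher and the hexokinase Hk2 13.4-fold, while Gapdh was 2-fold lower. In threonine, serine and one-carbon metabolism 9 of 20 were higher (45%), 6 lower (30%) and 5 not called. Tdh (threonine dehydrogenase) had 193, 202 and 186 CPM at Stage2 and 2 counts in MEF, a ratio of 3820 (95% counting interval 1060 to 31600), and Gldc, of the glycine cleavage system, had 94.3, 99 and 95.1 CPM at Stage2 and 1 count in MEF. Phgdh, the first enzyme of serine synthesis, had 192, 283 and 306 CPM in MEF and 49.7, 55.1 and 54.5 CPM at Stage2, lower without overlap. Cholesterol synthesis genes were higher in 7 of 20 (35%), lower in 7 (35%) and not called in 6 (10 higher and 4 lower when scaled by library totals). Of 82 oxidative phosphorylation subunits 20 were higher and 42 lower, with a median of -0.45 against 0.25 over all genes (28 and 32 when scaled by library totals). Atp5g1, the ring subunit of ATP synthase, was 13.2-fold lower and Atp5a1, its alpha subunit, 2.09-fold higher. Cytoplasmic ribosomal proteins were higher in 17 of 82 and lower in 38 (29 and 27 when scaled by library totals), and mitochondrial ones higher in 24 of 76 and lower in 36 (31 and 24).

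The secretory and lysosomal machinery was lower. Of 20 chaperones and cargo receptors of the endoplasmic reticulum 18 were lower (median -2.04). Kdelr2, which returns escaped chaperones, had 1034, 747 and 809 CPM in MEF and 33.8, 31.6 and 34.1 CPM at Stage2. Lysosome and autophagy genes were lower in 21 of 26, with a median of -1.97. The protease Ctsb was 14.2-fold lower. Tfeb, the master regulator of lysosomal genes, was higher, with 16.8, 17.6 and 13.8 CPM at Stage2 and 1, 1.34 and 3.32 CPM in MEF. Antigen presentation by class I was lower in 12 of 17. B2m, the shared light chain, had 525, 456 and 450.5 CPM in MEF and 8.7, 8.67 and 8.47 CPM at Stage2, 55.4-fold lower (edgeR adjusted p = 6.77e-14), while the class Ib gene H2-Q4, one of a family of near copies, was 23.2-fold higher. Cytokines and chemokines were lower in 17 of 20 (median -4.1) and 3 were not called. Ccl2, which attracts monocytes, had 22.2, 23.6 and 18.1 CPM in MEF and 0.0977, 0.141 and 0.0647 CPM at Stage2. Interferon response genes were mixed, against 44.6% of all genes higher and 36.4% lower. Of 24, 8 were higher (33.3%), 10 lower (41.7%) and 6 not called (11 higher and 8 lower when scaled by library totals). Ifitm1, an interferon-induced membrane protein of early germ cells, had 114, 90.7 and 94.3 CPM at Stage2 and 2.38, 4.08 and 3.74 CPM in MEF.

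Germline genes were higher in 25 of 27 tested, with a median of 7.91 (6.22 with the 12 genes without a count in MEF set at their bound). Dazl, an RNA-binding protein of germ cells, had 20.6, 24.4 and 21.7 CPM at Stage2 and 3 counts in MEF, a ratio of 295 (95% counting interval 101 to 1430). Hormad1, a protein of meiotic chromosome axes, had 34.5, 27.9 and 25.9 CPM at Stage2 and no count in MEF, at least 380-fold higher. Smc1b, a meiotic cohesin, had 118, 115 and 129.8 CPM at Stage2 and 0, 0.869 and 0.0603 CPM in MEF. The Rhox homeobox cluster of the X chromosome passed the filter in only 4 of 30 members, all higher. Of these, 3 had no count in MEF and could not have been lower. Rhox5 had 100.4, 107 and 86.1 CPM at Stage2 and 1.25, 0.669 and 0.422 CPM in MEF. Genes of the 2-cell embryo were higher in 6 of 11 tested, lower in 0 and not called in 5, and 9 more did not pass the filter. At least 7 of the 11 had no count in MEF and could not have been lower. Zscan4c, of a family of near copies, had 0.586, 0.282 and 0.194 CPM at Stage2, near the limit set by a few counts, and no count in MEF, with a mean of 5.14 CPM in iPSC.

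Markers of other cell types were checked as well, against 44.6% of all genes higher and 36.4% lower. Macrophage and blood markers were lower in 11 of 13 tested and higher in 1, Cd68. Their summed level was 179.6 to 206.2 CPM in MEF and 28.1 to 35.8 CPM at Stage2. Lyz2 (lysozyme) had 81.3, 91.6 and 62.5 CPM in MEF and 0.488, 0.635 and 0.194 CPM at Stage2, and C1qa was at 0 at Stage2, as described above. The part of such cells in the lower chemokine and complement genes was not tested. Endothelial markers were higher in 6 of 7 tested, such as Pecam1, an adhesion molecule that pluripotent cells also carry, with 69, 93 and 88.6 CPM at Stage2 and 0, 0.201 and 0.362 CPM in MEF. The defining endothelial genes Cdh5, Erg and Cldn5 did not pass the filter. Tie1, among the 7 tested, had no count in MEF and could not have been lower. Of 9 regulators of mesendoderm 6 were higher, 1 was lower and 2 were not called. Among the higher ones was Eomes, with 14.3, 14.4 and 10.9 CPM at Stage2 and 3 counts in MEF. Foxa2, Sox17, Hnf4a and Cdx1, also in this list, had no count in MEF and could not have been lower. Neural markers were higher in 6 of 11, lower in 2 and not called in 3, and their summed level overlapped, at 277.4 to 318.2 CPM at Stage2 and 257.4 to 369.7 CPM in MEF. Sox1, an early neural factor, had 4.2, 5.01 and 5.24 CPM at Stage2 and no count in MEF. Syp, Snap25 and Olig2 had no count in MEF either, and none of these 4 neural markers could have been lower. Acta1, the skeletal muscle actin, was 260-fold lower while Mylpf, a fast muscle light chain, was 144-fold higher, and Myod1 and Myog did not pass the filter.

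By absolute difference in CPM, the genes gained at Stage2 included nuclear and growth-related ones. Malat1, a nuclear noncoding RNA, had 13900, 14450 and 14340 CPM at Stage2 and 3256, 3074 and 3380 CPM in MEF, 4.4-fold higher (edgeR adjusted p = 1.9e-09). The chaperone Hsp90aa1 was 6.52-fold higher, the nucleolar protein Npm1 4.49-fold, the chromatin proteins Ptma and Set 5.03-fold and 4.95-fold and the topoisomerase Top2a 11.6-fold. Usp9x, a deubiquitinase, was 4.61-fold higher, and the ribosomal proteins Rpl4 and Rpl5 2.66-fold and 2.19-fold, unlike most of their list. Hist1h4d and Hist1h2bg, histone genes with near-identical copies whose reads may be split between them, complete the 12. Hist1h2bg had 945, 794 and 3481 CPM at Stage2, so that replicate 3 set most of its mean, and 46.5, 60.5 and 55 CPM in MEF. The genes lost were those of the matrix and of stress fibres already described (Thbs1, Acta2, Actb, Col1a2 and Fn1), Tnc (tenascin C) at 174-fold, Sparc (osteonectin) at 53.2-fold, Tpm1 at 36.9-fold and Tagln, and 3 structural RNAs. Among these, Rpph1, the RNA of RNase P, had 10390, 14230 and 7107 CPM in MEF and 228, 260 and 169 CPM at Stage2. Rmrp was 12.5-fold lower, and Rn45s had 39680, 102900 and 27750 CPM in MEF and 15930, 4219 and 3758 CPM at Stage2, where replicate 1 stood far above the others. How much of these RNAs a library holds also depends on how it was made, and this was not tested.

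Relatives with opposite changes are given as 12 pairs that were chosen after their values were seen. Relatives that moved together were not counted, so the pairs give no share. With 44.6% of all genes higher and 36.4% lower, opposite calls can be frequent among any pairs of genes. Besides Myc and Mycn, the cadherins, the nidogens, the lamins, the integrin chains and the Polycomb and Tead pairs above, the 12 included enzymes and transporters. The lactate transporter Slc16a3 was 4.89-fold lower and Slc16a1 9.37-fold higher. Ldha, a lactate dehydrogenase subunit, was 2.48-fold lower, and Ldhb had 112, 136 and 116 CPM at Stage2 and 8.02, 7.22 and 9.23 CPM in MEF. The cytochrome oxidase subunit Cox6b1 was 6-fold lower and its testis form Cox6b2 11.1-fold higher. Rpl10 was 3.81-fold lower, and its retrogene Rpl10l, a ribosomal protein of the testis, had 15.2, 12.8 and 11.1 CPM at Stage2 and no count in MEF.

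**Figure D4:**
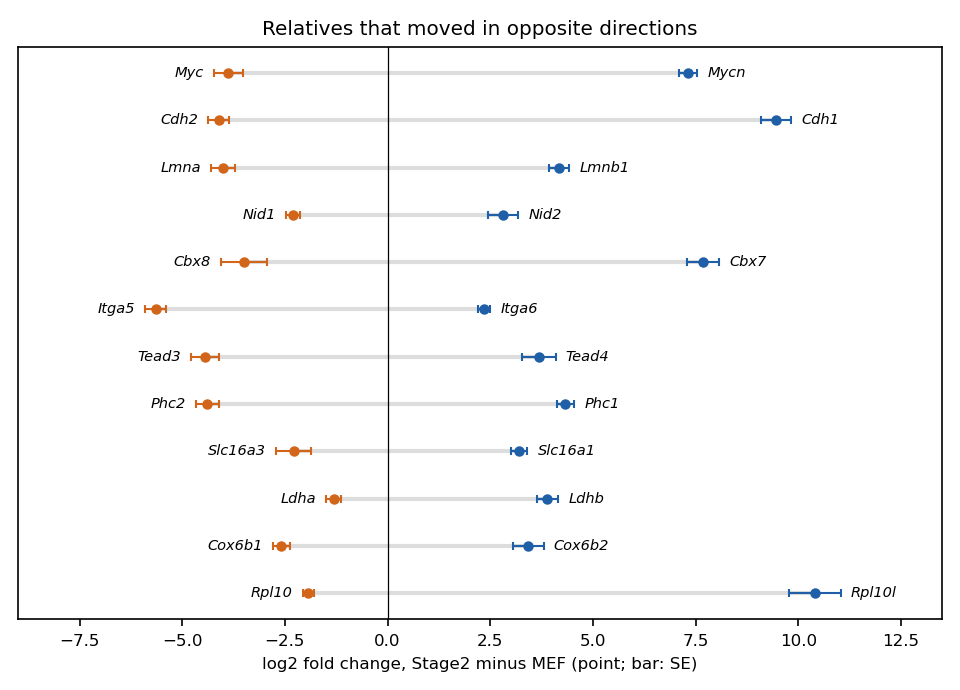
Log2 fold change, Stage2 minus MEF, of 12 pairs of related genes chosen after their values were seen, with the lower member in orange, the higher in blue and bars for the SE. Rpl10l, with no count in MEF, is drawn at its fitted value, which depends on the prior count.

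Fewer genes were called between Stage2 and the other stages than between Stage2 and MEF. Stage2 differed from Stage1 in 3048 genes higher (20.6%) and 2921 lower (19.8%), and from iPSC in 1310 higher (8.87%) and 1360 lower (9.21%). These tests treated all libraries as independent, although the labels do not say whether replicates of the same number share an origin. Correlation between replicates of the same number was looked at only for Stage2 and MEF. Lefty2 had a mean of 3.17 CPM at Stage1 and 49.2 CPM in iPSC, and its Stage2 level lay above both, with a log2 fold change against iPSC of 1.80 ± 0.25 (edgeR adjusted p = 0.000362). Myc had 46.9 CPM at Stage1, near its MEF level, so that the lower level at Stage2 came with a log2 fold change against Stage1 of -3.69 ± 0.35 (edgeR adjusted p = 5.31e-07). Dazl had 0.91 CPM at Stage1 and 18.3 CPM in iPSC, and Stage2 did not pass the test against iPSC, at a log2 fold change of 0.28 ± 0.27. Col1a1 had 1.47 CPM at Stage1 and 8.3 CPM in iPSC, below its 20.8 ± 6.34 CPM at Stage2 (SD, n = 3), and 15 of the 21 collagen chains were higher at Stage2 than at Stage1. Fn1 had 440 CPM at Stage1 and 533 CPM in iPSC, against 1185 ± 132 CPM at Stage2.

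**Figure D5:**
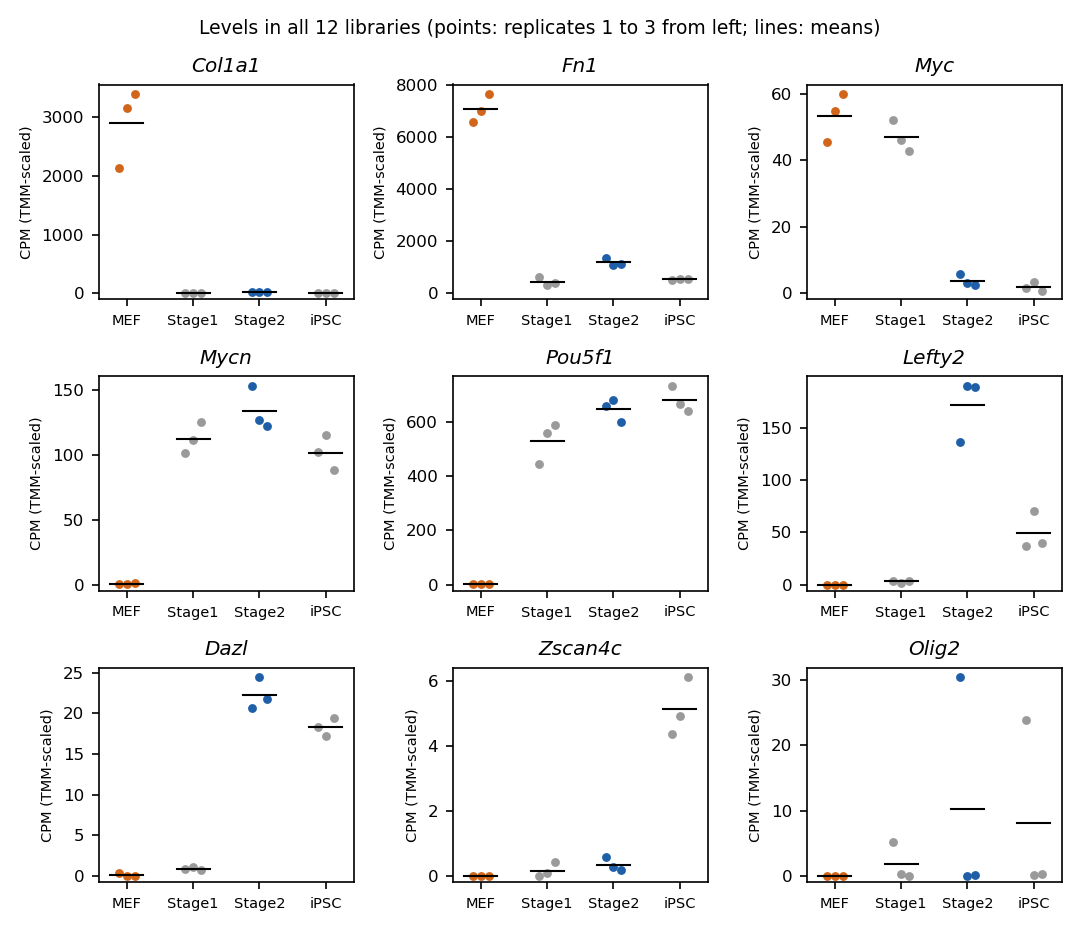
Levels (TMM-scaled CPM, linear axes from 0) of 9 genes in all 12 libraries, as points for replicates 1 to 3 and lines for means. Col1a1 and Fn1 are highest in MEF, Lefty2 peaks at Stage2, Myc is high in MEF and Stage1 only, Zscan4c stands out in iPSC, and Olig2 is high in replicate 1 of Stage2 and iPSC.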

How the data were processed

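RNA was extracted with a column kit and sequenced as Illumina libraries, per the labels' protocols. The authors deposited whole-number read counts per gene symbol for each library, as made by HTSeq, with 5 summary rows that were left out of library sizes and tests. Per the submitters' processing notes the tools were TopHat2 2.0.9, Bowtie2 2.2.6, SAMtools 0.1.19, HTSeq 0.5.4p3 and DESeq2 1.12.4, and the build was mm10. The sources used here do not give the gene annotation, the strandedness or the read length. Positions and promoters come from RefSeq (GRCm38.p6), which held 21571 of the 23420 symbols.

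The quasi-likelihood test of edgeR 4.0.16 (with limma 3.58.1 and statmod 1.5.0, in R 4.3.3) was fitted to all 12 libraries in 4 groups, with TMM scaling and filterByExpr, which kept 14770 genes. Of the others, 804 had no count in any library. Depth was 8916223 to 19011944 gene counts per compared library, which sets the limit of 3 counts at 0.181 to 0.376 CPM, and intervals cover counting error only. Replicates 1 to 3 were not treated as pairs. The script was run on simulated data with far fewer and smaller changes than in this comparison, so that run did not test the scaling for it. Alternatives were RLE scaling, library totals, 2 other filters, DESeq2 1.42.0, only the 6 libraries, a fold threshold of 2, a replicate block, another prior count, no structural RNA genes, and each of the 6 libraries left out.

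Named genes were the 12 of each direction that changed by the largest fold among called genes with at least 5 CPM in the higher group and no overlap of libraries, the 12 of each direction with the largest difference in CPM among those called and at least 2-fold changed, members of the gene lists, and Pou5f1, Sox2, Klf4 and Myc. Clones, predicted genes and small RNAs were not named, and a few results are not reported here. The members and lists were chosen with earlier results of these data known.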

Additional observations from a re-analysis of the deposited data

Results flagged for a closer look

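One measure outside the gene counts stood out. Reads that fell on no annotated gene, a row of the deposited files that no comparison used, made up a mean of 49.87% of reads over the 3 Stage2 libraries, above the 9.213% of the 3 MEF libraries. The ranges of Stage2 and MEF, 47.4% to 53.4% and 8.86% to 9.42%, did not overlap. Stage1 and iPSC had means of 42.8% and 38.83%, so MEF stood apart from each other group. Which sequences these reads came from was not analysed here.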

How the results depend on the processing

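The counts of called genes stayed within 1.5 times of 6590 higher and 5372 lower in each of the 16 alternatives, and no gene called both as reported and in an alternative changed direction. Genes higher ranged from 4635 with a fold threshold of 2 to 9039 of 22616 without a filter, and genes lower from 3610 to 5443. Leaving out 1 library in turn gave 6487 to 6973 genes higher and 5250 to 5443 lower, and at least 2-fold differences in 5379 to 5682 and 4171 to 4361. Where a group was left with 2 libraries the spread was pooled over all groups. Scaling by library totals moved the median of all genes up by 0.383 and gave 7592 higher and 4429 lower (63.2% of calls higher in place of 55.1%), with its values given above beside the lists that turned. DESeq2 called 6784 and 5261, and the 6 libraries alone 5656 and 5220.

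With the replicate number as a block, 6580 genes were higher and 5313 lower. Deviations of Stage2 and MEF libraries of the same number correlated at -0.04, 0.089 and -0.037, and not every library correlated best with its own number, so the numbers were not taken as pairs, and Olig2 and Olig1 were called under the block (log2 fold changes 9.06 and 6.94). Of the named genes, 2 without a call changed direction with a library left out. The log2 fold change of Fos ran from -0.64 to 0.19 (without MEF replicates 2 and 3), and that of Xist from -4.06 to 5.62 (without MEF replicates 3 and 1), with most of the Xist counts of MEF in replicate 1. Without that library Xist was called higher at Stage2 (edgeR adjusted p = 0.00731).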

Other observations

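Other gene groups are given here beside the background of 44.6% of genes higher and 36.4% lower at Stage2. Among 17 RNA-binding genes of the Lin28 and let-7 axis, 14 were higher at Stage2, 2 were lower and 1 was not called. Lin28b, the second Lin28 protein, had 41.9, 34.4 and 34.2 CPM at Stage2 and no count in MEF. Hmga2, a chromatin protein and a classical let-7 target, went the other way, with 236, 186 and 246 CPM in MEF and 32.7, 25.8 and 29.6 CPM at Stage2. Of 27 imprinted genes 16 were lower, 7 were higher and 4 were not called. Igf2, a growth factor, had 271, 293 and 262 CPM in MEF and 5.76, 4.72 and 5.04 CPM at Stage2, and its noncoding neighbour H19 was lower by a smaller factor, 2.46-fold, a call lost when scaled by library totals (H19 log2 fold change -0.92, edgeR adjusted p = 0.0556) and without MEF replicate 3 (0.0698). Rtl1, a retrotransposon-derived gene that is active on the paternal allele, had 3.81, 2.19 and 5.82 CPM at Stage2 and no count in MEF. Of 40 protocadherin genes 32 were lower, 0 were higher and 8 were not called, although gamma members share their last exons and may share reads. Pcdh19, outside the clusters, had 230.4, 215 and 246 CPM in MEF and 2.54, 1.62 and 2.72 CPM at Stage2.

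Of 17 long noncoding RNAs 12 were higher, 2 were lower and 3 were not called. Mir17hg, the host of the miR-17 cluster, had 62.9, 61.9 and 52.6 CPM at Stage2 and 2.88, 0.201 and 1.75 CPM in MEF, and Neat1, the scaffold of paraspeckles, was 8.54-fold higher. Tsix, which overlaps Xist on the opposite strand, had 9.77, 13.7 and 10.9 CPM at Stage2 and no count in MEF. The sources used here do not say whether the counting used strand, so Tsix and Xist reads cannot be told apart. Zinc-finger genes named Zfp were higher in 192 of 339 (56.6%), lower in 61 and not called in 86. Replication-dependent histone genes, many of them near copies, were higher in 28 of 60, lower in 15 and not called in 17, a share higher near the background. Of 6 trophoblast markers tested 4 were higher, and of 4 adipocyte markers 3 were lower. Tfap2c, among these trophoblast markers, had no count in MEF and could not have been lower.

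In a few genes, picked after their values were seen, 1 of the Stage2 replicates stood apart. Olig2, a neural transcription factor, had 30.4, 0.0705 and 0.194 CPM at Stage2 and was not called (edgeR adjusted p = 0.126). It had 5.18, 0.269 and 0.0842 CPM at Stage1, 23.9, 0.208 and 0.34 CPM in iPSC and no count in MEF. Its neighbour Olig1 on the same chromosome had 5.96, 0.282 and 0.0647 CPM at Stage2, 1.87, 0.179 and 0 CPM at Stage1 and 6.97, 0.486 and 0.255 CPM in iPSC. Myof (myoferlin), a membrane repair protein, had 49, 8.32 and 12.2 CPM at Stage2 and 42.3, 7.01 and 6.89 CPM in iPSC. In each of these genes replicate 1 was the highest of its group at Stage2 and in iPSC. Whether replicates of the same number share an origin is not given by the labels.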
